A study of Mus musculus with 12 samples.

Results

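The interferon-stimulated genes of mouse kidney were followed in 4 groups of male mice, as a list of 37 genes that interferons are known to induce. For each gene 1 value was used, the mean log2 ratio of all its probe sets. The list was chosen by name, with earlier results of these data known, so its counts beside all genes are descriptive. It holds 26 genes mainly known from the response to type I interferons and 11 mainly known from the response to interferon gamma, although most of them answer to both. Of these, 35 were measured, 24 of the type I class and all 11 of the interferon gamma class, among 18193 genes in all. Isg15 had only a probe set shared with another gene and Ifi44 had no named probe set, so neither was analysed here.

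Kidneys came from AT1A receptor knockout mice (AGTR1A-KO, here KO) and wild-type mice (WT), each at baseline or under angiotensin II (ANG II) given at 1 ug/kg/min for 2 days. The 4 groups were KO under ANG II, KO at baseline, WT under ANG II and WT at baseline. All mice were F1 (C57BL6 X 129/SvEv) males of 2.5 months on the diet that the labels call NS, with 3 mice and 3 arrays per group. Total RNA of snap-frozen kidney was hybridised to Affymetrix Mouse Genome 430 2.0 arrays. The study asked which kidney genes respond when AT1 receptors are activated. AT1A is the main angiotensin II type 1 receptor of the mouse kidney, and the labels describe the mice only as lacking it, with no tissue named for the deletion.

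Type I interferons signal through the receptor chains IFNAR1 and IFNAR2 to a complex that includes STAT2 and IRF9 and binds the interferon-stimulated response element (ISRE) in promoters of antiviral genes. Interferon gamma signals through IFNGR1 and IFNGR2 and acts on promoters with gamma-activated sites (GAS), and it induces antigen processing genes, GTPases of cell-autonomous defence and chemokines that draw T cells. In kidney both resident cells and leukocytes can express these genes.

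The promoters of 26 of the 35 measured members were in the RefSeq table of assembly GRCm38.p6, as windows of 250 bases before to 50 bases after the gene start. The remaining 9 members were Usp18, Mx1, Mx2, Rtp4, Dhx58, Parp9, Parp14, Iigp1 and Zbp1. Shown here are the windows of a pair of type I genes and a pair of gamma genes to which the results return, each 5′ to 3′ on the strand of its gene, with matches in capitals. The capitals mark the ISRE core, which is GAAA, any 2 bases and GAAA and was searched on both strands, so that it may read TTTC, any 2 bases and TTTC here, and in Bst2 also the GAS TTCNNNGAA, which reads the same on both strands. Ifit1 lies in chr19:34640639-34640938 on the plus strand, Bst2 in chr8:71537423-71537722 on the minus strand, Gbp2 in chr3:142620413-142620712 on the plus strand and Cxcl10 in chr5:92348840-92349139 on the minus strand.
Ifit1: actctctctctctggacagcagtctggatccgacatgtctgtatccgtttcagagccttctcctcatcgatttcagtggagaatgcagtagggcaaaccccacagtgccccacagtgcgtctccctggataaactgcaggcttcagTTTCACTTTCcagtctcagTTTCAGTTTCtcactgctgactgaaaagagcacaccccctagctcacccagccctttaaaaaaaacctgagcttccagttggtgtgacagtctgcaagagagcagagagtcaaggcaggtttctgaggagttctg
Bst2: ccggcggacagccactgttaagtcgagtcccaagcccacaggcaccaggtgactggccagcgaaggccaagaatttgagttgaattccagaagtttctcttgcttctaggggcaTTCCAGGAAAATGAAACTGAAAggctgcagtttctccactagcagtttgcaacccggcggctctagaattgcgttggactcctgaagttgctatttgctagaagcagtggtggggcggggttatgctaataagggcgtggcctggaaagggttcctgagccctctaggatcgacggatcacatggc
Gbp2: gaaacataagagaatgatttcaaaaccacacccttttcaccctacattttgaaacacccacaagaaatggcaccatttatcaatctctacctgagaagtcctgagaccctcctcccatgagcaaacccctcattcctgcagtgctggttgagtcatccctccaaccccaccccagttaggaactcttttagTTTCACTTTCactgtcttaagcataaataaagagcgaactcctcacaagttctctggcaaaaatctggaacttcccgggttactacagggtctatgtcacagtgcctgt
Cxcl10: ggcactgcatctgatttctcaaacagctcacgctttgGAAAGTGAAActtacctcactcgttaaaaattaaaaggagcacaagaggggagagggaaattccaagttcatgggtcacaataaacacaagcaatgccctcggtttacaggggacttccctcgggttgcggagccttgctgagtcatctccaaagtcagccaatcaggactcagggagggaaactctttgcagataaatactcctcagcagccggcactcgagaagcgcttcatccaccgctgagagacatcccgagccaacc
The Ifit1 window holds matches at -104 to -95 and at -85 to -76 from the gene start. In Bst2 a pair of overlapping ISRE matches begins at -130 and at -124, and the GAS match at -136 overlaps the first of them. Gbp2 has its match at -59 to -50 and Cxcl10 at -213 to -204. A match describes these letters in this window and nothing about binding. Of the 30 windows of the members, some of which have several gene starts, 14 (46.7%) held the ISRE core, against 3.44% of all 32851 promoters. The GAS was in 8 of 30 windows (26.7%), against 8.30% of all promoters. The classes were alike in this: 9 of 18 type I windows and 5 of 12 gamma windows held the ISRE core, and 5 of 18 and 3 of 12 held the GAS. At baseline 6 of the 14 genes with an ISRE match and 7 of the 12 without it were called higher in KO than WT, and under ANG II 8 of 14 and 5 of 12 were. In the KO response 7 of 14 with it and 7 of 12 without it were called lower, and in the WT response 6 of 14 and 3 of 12 were. Over all genes 5.13% were called higher in KO at baseline and 15.2% under ANG II. Called lower were 7% of all genes in the KO response and 15.6% in the WT response. The counts by motif were not tested against each other.

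The deposited values are ratios of an array to the median of the probe set over the 12 arrays, so a value of 1 is the middle of the series for that gene, and levels of different genes cannot be compared. In the account that follows, log2 differences carry the standard error of the fit across all genes, and a gene is called when its adjusted p (limma, Benjamini-Hochberg over all 18193 genes) was under 0.05.

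**Figure D1:**
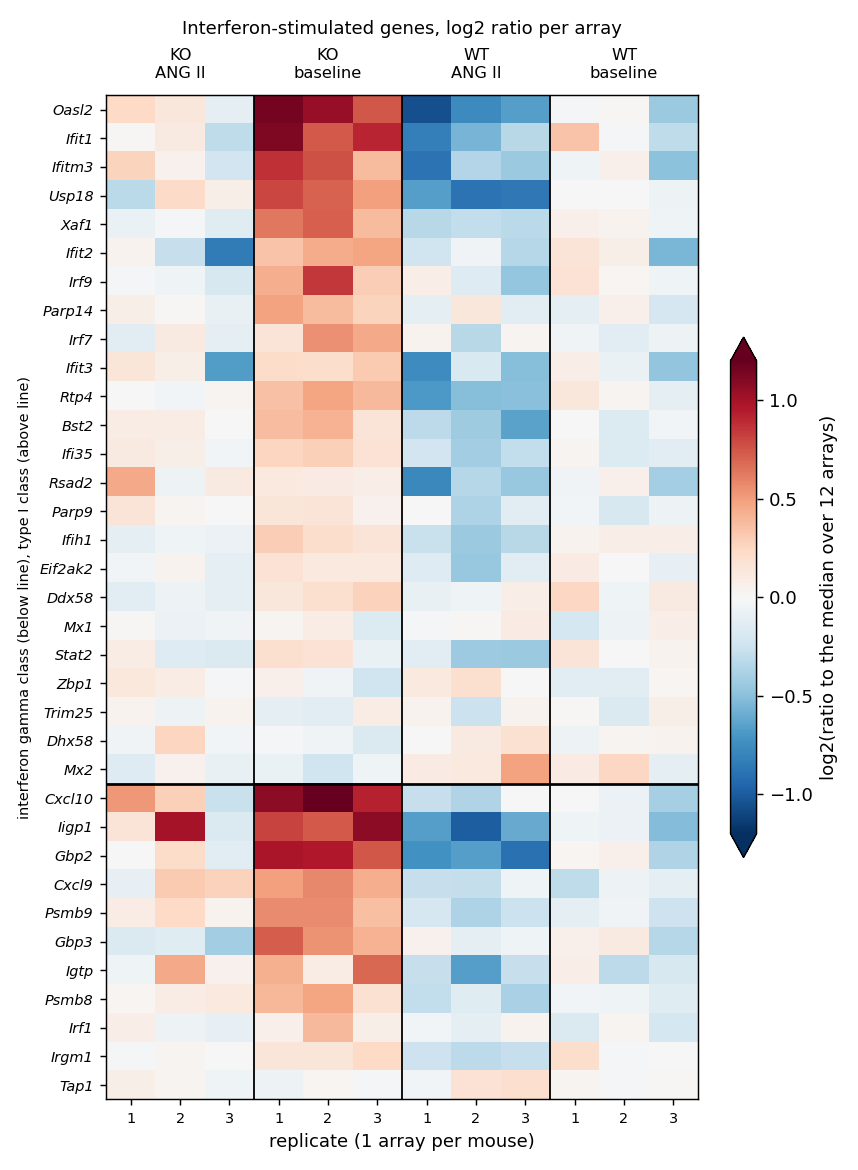
Log2 ratio of each of the 35 measured members (rows) on each of the 12 arrays (columns, 3 per group), type I class above the line and interferon gamma class under it, each sorted by the KO minus WT difference at baseline. Red is above and blue below the gene's median over the arrays. The KO baseline columns are the reddest for most rows, and the WT ANG II columns the bluest.

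Most members were highest in KO kidneys at baseline and lowest in WT kidneys under ANG II. The group mean was highest in KO baseline for 28 of 35 members, against 23.4% of all genes, and lowest in WT ANG II for 25 of 35, against 33.2% of all genes. For 15 members the order was KO baseline, KO ANG II, WT baseline and WT ANG II, from high to low. No member was highest in WT baseline. Of the 35, 25 (71.4%) were called in at least 1 of the 5 comparisons, in either direction, against 43.9% of all genes. By the mean of their probe sets, the 10 never called were Irf1 and Tap1 of the gamma class and Dhx58, Zbp1, Eif2ak2, Trim25, Ifit3, Mx1, Mx2 and Parp9 of the type I class. Single probe sets of Tap1, Dhx58 and Eif2ak2 were called, as given later.

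The first question was whether KO and WT kidneys differed before any infusion. At baseline 17 of 35 members were higher in KO than in WT and none was lower, where 5.13% of all genes were called higher and 2.94% lower. The median difference was 0.41 on the log2 scale over the members, against -0.04 over all genes. The 3 arrays of KO baseline lay above the 3 arrays of WT baseline for 26 of 35 members, against 13.6% of all genes, and they lay below for none, against 21.1%.

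Among the signalling members, Usp18, the protease that removes ISG15 from proteins and restrains the type I receptor, was higher in KO by 0.69 ± 0.12 (adjusted p = 0.00595). Its ratios were 0.8, 1.17 and 1.05 in KO ANG II kidneys, 1.74, 1.63 and 1.41 in KO baseline kidneys, 0.633, 0.542 and 0.55 in WT ANG II kidneys and 0.994, 1.01 and 0.959 in WT baseline kidneys. The KO baseline arrays were the highest and the WT ANG II arrays the lowest, without overlap between either and any other group. Irf7, the transcription factor that drives interferon alpha genes, was higher by 0.46 (adjusted p = 0.0321). Irf9, the DNA-binding subunit of the type I complex, differed by 0.48 ± 0.15 (adjusted p = 0.0644) and Stat2, its partner, by 0.03 (adjusted p = 0.894). Irf1, an early factor of the gamma response, differed by 0.29 (adjusted p = 0.0921).

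None of the 6 sensors and effectors of RNA sensing was called at baseline. Their differences ran from -0.09 in Dhx58 (LGP2) to 0.15 in Ifih1 (MDA5), with Ddx58 (RIG-I), Zbp1, Eif2ak2 (PKR) and Trim25 between them. Ifih1, a cytoplasmic sensor of long double-stranded RNA, had ratios of 0.919, 0.967 and 0.954 in KO ANG II, 1.23, 1.16 and 1.11 in KO baseline, 0.832, 0.733 and 0.793 in WT ANG II and 1.03, 1.06 and 1.05 in WT baseline. The KO baseline arrays lay above WT baseline by a narrow gap, and the difference missed the threshold (adjusted p = 0.169).

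Of the 14 antiviral effectors 8 were higher in KO at baseline. Oasl2, a member of the oligoadenylate synthetase-like family, had the largest difference of the type I class, 1.13 ± 0.15 (adjusted p = 0.00114). Its ratios were 1.18, 1.1 and 0.929 in KO ANG II, 2.22, 2.06 and 1.68 in KO baseline, 0.482, 0.587 and 0.634 in WT ANG II and 0.99, 1.01 and 0.734 in WT baseline. Each KO baseline array was above all 9 others, and each WT ANG II array below them. Ifit1, which binds viral RNA caps and carries the pair of ISRE matches shown above, was higher by 0.92 ± 0.17 (adjusted p = 0.00687). It had ratios of 1.01, 1.08 and 0.811 in KO ANG II, 2.18, 1.67 and 1.89 in KO baseline, 0.567, 0.679 and 0.792 in WT ANG II and 1.27, 0.988 and 0.807 in WT baseline. Here too KO baseline stood apart from every other group, while the WT baseline arrays spread over the range of KO ANG II. Ifitm3, which blocks virus entry at endosomes, was higher by 0.84 and Xaf1, a proapoptotic interferon target, by 0.56 ± 0.08 (adjusted p = 0.00187). Xaf1 had ratios of 0.947, 0.985 and 0.904 in KO ANG II, 1.55, 1.64 and 1.30 in KO baseline, 0.796, 0.815 and 0.802 in WT ANG II and 1.04, 1.03 and 0.962 in WT baseline. The 3 WT ANG II arrays were close together and below all others. Rtp4, an interferon-induced chaperone of membrane receptors, was higher by 0.39 ± 0.08 (adjusted p = 0.00968). Its ratios were 0.995, 0.98 and 1.03 in KO ANG II, 1.28, 1.39 and 1.31 in KO baseline, 0.622, 0.702 and 0.707 in WT ANG II and 1.10, 1.02 and 0.922 in WT baseline. Only KO ANG II and WT baseline overlapped for this gene. The other called effectors were Parp14 (0.47), Bst2, the tetherin that holds budding virions (0.38), and Ifi35 (0.33). Not called were Ifit2 (0.53, adjusted p = 0.129), Ifit3 (0.41), Rsad2 (0.22), Parp9 (0.22), Mx1 (0.05) and Mx2 (-0.20).

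Among the gamma class 7 of 11 were higher in KO at baseline. Cxcl10, a chemokine that attracts T cells through CXCR3, had the largest difference of all members, 1.34 ± 0.20 (adjusted p = 0.00201). It had ratios of 1.43, 1.22 and 0.832 in KO ANG II, 2.10, 2.94 and 1.90 in KO baseline, 0.823, 0.78 and 1.01 in WT ANG II and 0.994, 0.954 and 0.759 in WT baseline. KO baseline stood above all, and the other 3 groups overlapped. Cxcl9, its relative, was higher by 0.66. Of the GTPases, Iigp1 was higher by 1.08 ± 0.24, Gbp2 by 0.99 ± 0.12 (adjusted p = 0.000812) and Gbp3 by 0.62 ± 0.12 (adjusted p = 0.00922). Gbp2, a guanylate-binding protein that coats vacuoles of pathogens, had ratios of 0.999, 1.17 and 0.911 in KO ANG II, 1.98, 1.95 and 1.67 in KO baseline, 0.603, 0.633 and 0.539 in WT ANG II and 1.02, 1.04 and 0.778 in WT baseline. Gbp3 had ratios of 0.886, 0.903 and 0.748 in KO ANG II, 1.65, 1.46 and 1.34 in KO baseline, 1.03, 0.92 and 0.965 in WT ANG II and 1.04, 1.08 and 0.788 in WT baseline. KO baseline was highest for both, but WT ANG II was lowest for Gbp2 and within the WT baseline range for Gbp3. Igtp (0.54, adjusted p = 0.0711) and Irgm1 (0.12, adjusted p = 0.308), 2 immunity-related GTPases, were not called.

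The immunoproteasome subunits Psmb9 (0.63 ± 0.08, adjusted p = 0.00126) and Psmb8 (0.43 ± 0.08, adjusted p = 0.00927), which cut peptides for MHC class I, were higher in KO. Psmb9 had ratios of 1.06, 1.18 and 1.03 in KO ANG II, 1.48, 1.48 and 1.29 in KO baseline, 0.869, 0.772 and 0.836 in WT ANG II and 0.926, 0.973 and 0.842 in WT baseline. Psmb8 had ratios of 1.02, 1.06 and 1.08 in KO ANG II, 1.32, 1.39 and 1.14 in KO baseline, 0.813, 0.903 and 0.762 in WT ANG II and 0.974, 0.962 and 0.906 in WT baseline. For both genes every KO array, infused or not, was above every WT array. Tap1, the peptide transporter encoded beside Psmb9, differed by -0.03 as a mean of 4 probe sets (adjusted p = 0.853). Its promoter window shares 275 of 300 bases with that of Psmb9, in the opposite direction. A single Tap1 probe set, 1416016_at, was higher in KO by 0.38 (adjusted p = 0.015 among all probe sets), while the other 3 differed by -0.11 to -0.24.

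Of the 17 baseline calls 9 kept their call under every alternative and with any 1 array left out, namely Usp18, Oasl2, Xaf1, Gbp2, Gbp3, Psmb8, Psmb9, Cxcl9 and Cxcl10. Leaving out the third WT baseline replicate left 10 members called. Macrophage markers moved with this comparison: 10 of 12 (83.3%, against 5.13% of all genes) were higher in KO at baseline, with a median difference of 1.36. The mean log2 ratio of these markers per array was -0.15 to 0.34 in KO ANG II, 0.80 to 1.37 in KO baseline, -0.67 to -0.36 in WT ANG II and -0.38 to 0.02 in WT baseline, so that KO baseline stood apart for them as well. Lyz2, the macrophage lysozyme, was higher by 2.42 and C1qa, a complement subunit, by 1.44. Of the T and NK cell markers 1 of 11 (9.09%) was higher, of the dendritic cell markers none of 6 and of the neutrophil markers none of 7. Of the B and plasma cell markers 2 of 7 (28.6%) were higher, among them Jchain by 3.53. The share over all genes was 5.13%, and these lists are short. Of the endothelial markers 1 of 8 (12.5%) was higher, Vwf by 1.25. Their mean per array was -0.14 to 0.11 in KO ANG II and 0.30 to 0.39 in KO baseline. It was -0.31 to -0.155 in WT ANG II and -0.15 to 0.12 in WT baseline, so that KO baseline was again above all other groups. The neutrophil means went the other way, at -0.40 to -0.27 in KO baseline and -0.14 to 0.00051 in WT baseline, without overlap. The B and plasma cell means were 0.22 to 0.35 in KO baseline and -0.27 to -0.23 in WT baseline. The median difference of these 7 markers was only 0.03, and the largest was the 3.53 of Jchain. The dendritic cell means were 0.07 to 0.10 in KO baseline and -0.17 to 0.01 in WT baseline. The Actb signal at its 3′ end over its 5′ end, a sign of RNA quality, was -0.052 to -0.027 in KO baseline and -0.025 to 0.007 in WT baseline on the log2 scale, without overlap. For Gapdh the ranges overlapped, at -0.053 to 0.032 in KO baseline and -0.025 to 0.0014 in WT baseline. The part of these cells and of RNA quality in the difference was not tested, and in whole kidney more cells of a type and more RNA per cell cannot be told apart. As ratios carry no level, no marker can be said to be at 0.

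**Figure D2:**
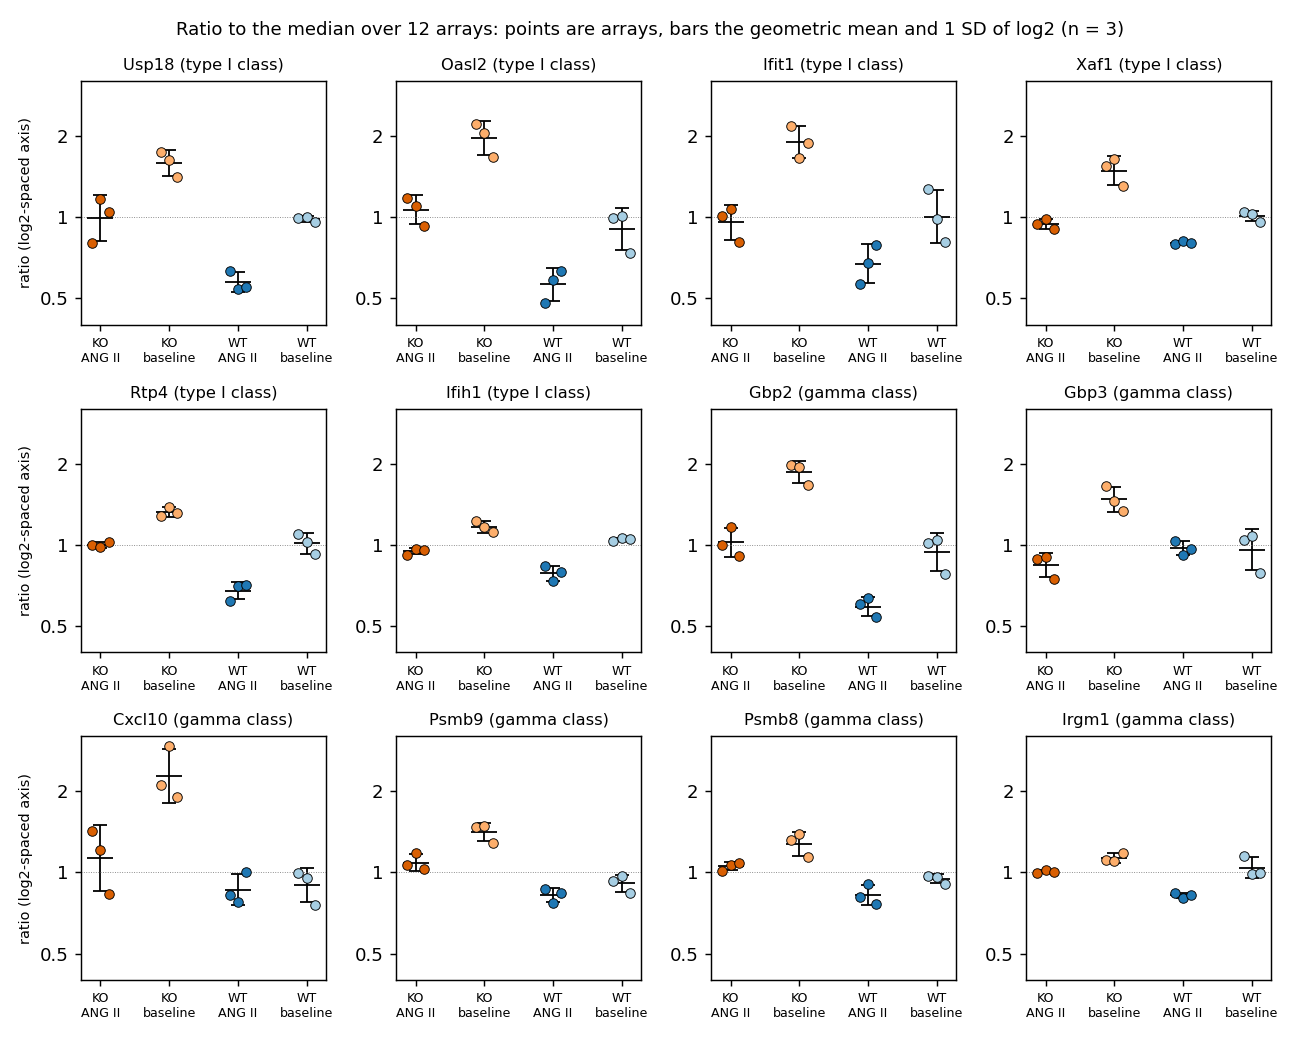
Ratio to the median over 12 arrays for 12 members, with each array as a point and the geometric mean and 1 SD of the log2 values as bars (n = 3 per group), on a log2-spaced axis. KO baseline has the highest mean in every panel, with arrays that overlap WT baseline for Irgm1. WT ANG II has the lowest mean in every panel except that of Gbp3, and its arrays overlap WT baseline for Gbp3, Cxcl10 and Psmb9.

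The next question was what ANG II did in kidneys without the receptor. After infusion 17 of 35 members were lower in KO ANG II than in KO baseline and none was higher, where 7% of all genes were called lower and 5.82% higher. The median difference was -0.31 over the members and 0.05 over all genes. This comparison and the one between genotypes at baseline share the 3 KO baseline arrays, so their values are given side by side and not as separate evidence.

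Of the type I class 12 of 24 fell. Ifit1 fell by 0.99 ± 0.17 (adjusted p = 0.00403), Oasl2 by 0.89 ± 0.15 (adjusted p = 0.00337), Usp18 by 0.68 ± 0.12 (adjusted p = 0.00542) and Xaf1 by 0.66 ± 0.08 (adjusted p = 0.000776). The KO ANG II arrays were below the KO baseline arrays in all of these. In the genes listed, baseline KO kidneys had been above WT by 0.92, 1.13, 0.69 and 0.56. The others that fell were Ifit2 (-0.78), Ifitm3 (-0.65), Irf9 (-0.61), Irf7 (-0.43), Rtp4 (-0.41), Parp14 (-0.38), Ddx58 (-0.31) and Ifih1 (-0.30). Ddx58 and Ifih1 were the 2 of 6 sensors called here. Rsad2, the radical SAM enzyme viperin, stayed uncalled at 0.07 (adjusted p = 0.766), with ratios of 1.37, 0.958 and 1.07 in KO ANG II and 1.08, 1.07 and 1.05 in KO baseline, and its arrays overlapped.

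Of the gamma class 5 of 11 fell, namely Cxcl10 by 1.01 ± 0.20 (adjusted p = 0.00807), Gbp2 by 0.87 ± 0.12 (adjusted p = 0.00153), Gbp3 by 0.81 ± 0.12 (adjusted p = 0.00205), Psmb9 by 0.38 ± 0.08 (adjusted p = 0.0147) and Psmb8 by 0.28 ± 0.08 (adjusted p = 0.0494). Iigp1 (-0.55 ± 0.24, adjusted p = 0.139) and Cxcl9 (-0.34 ± 0.11, adjusted p = 0.0622) were not called. Iigp1 had ratios of 1.11, 1.99 and 0.884 in KO ANG II and 1.75, 1.66 and 2.11 in KO baseline, and its second infused replicate lay within the baseline range. A single probe set of Dhx58, 1420769_at, was higher in KO ANG II by 0.44 (adjusted p = 0.0314 among all probe sets), so that 1 member was called higher when probe sets were tested alone or 1 stood for each gene. As a mean of 3 probe sets Dhx58 differed by 0.14 (adjusted p = 0.283). Irf1 (-0.20), Igtp (-0.25) and Irgm1 (-0.17) were not called, nor was Tap1 (0.03).

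With any 1 array left out and under all alternatives, 7 of the 17 kept their call, namely Usp18, Ifit1, Oasl2, Rtp4, Xaf1, Gbp2 and Gbp3. Leaving out KO ANG II replicate 3 or KO baseline replicate 2 left 9 members called, and leaving out KO baseline replicate 1 left 11. Of the 12 macrophage markers 10 (83.3%, against 7% of all genes) were lower in KO ANG II than in KO baseline. Their median was -1.12, and Lyz2 differed by -2.16. Their part was not tested. Endothelial markers included 4 lower (50%) and 1 higher (12.5%) of 8, and neutrophil markers 2 higher of 7 (28.6%). Over all genes 7% were lower and 5.82% higher. The neutrophil means did not overlap between the groups, and none of the 11 T and NK cell markers was called. The Actb signal at its 3′ end over its 5′ end was 0.0016 to 0.03 in KO ANG II and -0.05 to -0.03 in KO baseline on the log2 scale, without overlap, while for Gapdh the ranges overlapped. The part of these was not tested either.

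In WT kidneys, where the receptor was present, 11 of 35 members fell under ANG II and none rose, where 15.6% of all genes were called lower and 10.9% higher. The median difference was -0.22 over the members and 0.03 over all genes. The type I class held 9 of these calls. Usp18 fell by 0.78 ± 0.12 (adjusted p = 0.000948), Oasl2 by 0.68 ± 0.15 (adjusted p = 0.00632), Rtp4 by 0.58 ± 0.08 (adjusted p = 0.000322) and Ifit1 by 0.58 ± 0.17 (adjusted p = 0.0254). Their WT ANG II arrays lay below their WT baseline arrays. Ifih1 (-0.42), Bst2 (-0.40), Stat2 (-0.40), Xaf1 (-0.33) and Ifi35 (-0.22) completed the list. Stat2 had ratios of 0.912, 0.741 and 0.736 in WT ANG II and 1.12, 1.00 and 1.03 in WT baseline, and its difference in KO was -0.17 (adjusted p = 0.286). Ifitm3 (-0.40, adjusted p = 0.12) and Rsad2 (-0.39, adjusted p = 0.0641) were not called in WT.

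Gbp2 (-0.67 ± 0.12, adjusted p = 0.00247) and Irgm1 (-0.34 ± 0.07, adjusted p = 0.00442) were the 2 gamma members that fell in WT. They are 18.2% of the gamma class, near the 15.6% of all genes called lower. This count depends on averaging: with probe sets tested alone, or 1 for each gene, 4 gamma members were called lower. The additional calls rested on Psmb8 1422962_a_at (-0.40, adjusted p = 0.0225 among all probe sets) and Iigp1 1419042_at (-0.69, adjusted p = 0.0388). The share of all genes under these settings is not given here. Irgm1, a regulator of the other immunity-related GTPases, had ratios of 0.993, 1.02 and 1.00 in KO ANG II, 1.11, 1.10 and 1.18 in KO baseline, 0.84, 0.805 and 0.827 in WT ANG II and 1.15, 0.986 and 0.996 in WT baseline. The WT ANG II arrays were below all others. The chemokines and antigen processing genes were not called, with Cxcl10 at -0.05, Cxcl9 at -0.04, Psmb9 at -0.15, Psmb8 at -0.20 and Tap1 at 0.10. Usp18, Ifih1, Rtp4, Xaf1, Gbp2 and Irgm1 kept their call under every alternative and with any 1 array left out, and quantile normalization again left these 6 of the 11. Of the macrophage markers 5 of 12 (41.7%) were lower in WT ANG II, with a median of -0.49. Of the endothelial markers 3 of 8 (37.5%) were lower, while 3 of 11 T and NK cell (27.3%) and 2 of 7 neutrophil markers (28.6%) were higher. Over all genes 15.6% were lower and 10.9% higher. The signal of the Actb control at its 3′ end over its 5′ end was higher in WT ANG II, at 0.07 to 0.15 on the log2 scale, than in WT baseline, at -0.03 to 0.01, while for Gapdh the ranges overlapped. The part of these was not tested.

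The WT and KO responses share no arrays. Of the members, 7 fell in both, namely Usp18, Oasl2, Ifit1, Xaf1, Rtp4, Ifih1 and Gbp2, which are 63.6% of those that fell in WT and 41.2% of those that fell in KO. Over all genes 313 fell in both, or 11% of the 2839 that fell in WT and 24.6% of the 1274 that fell in KO. By class, 6 of 24 type I members and 1 of 11 gamma members fell in both.

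**Figure D3:**
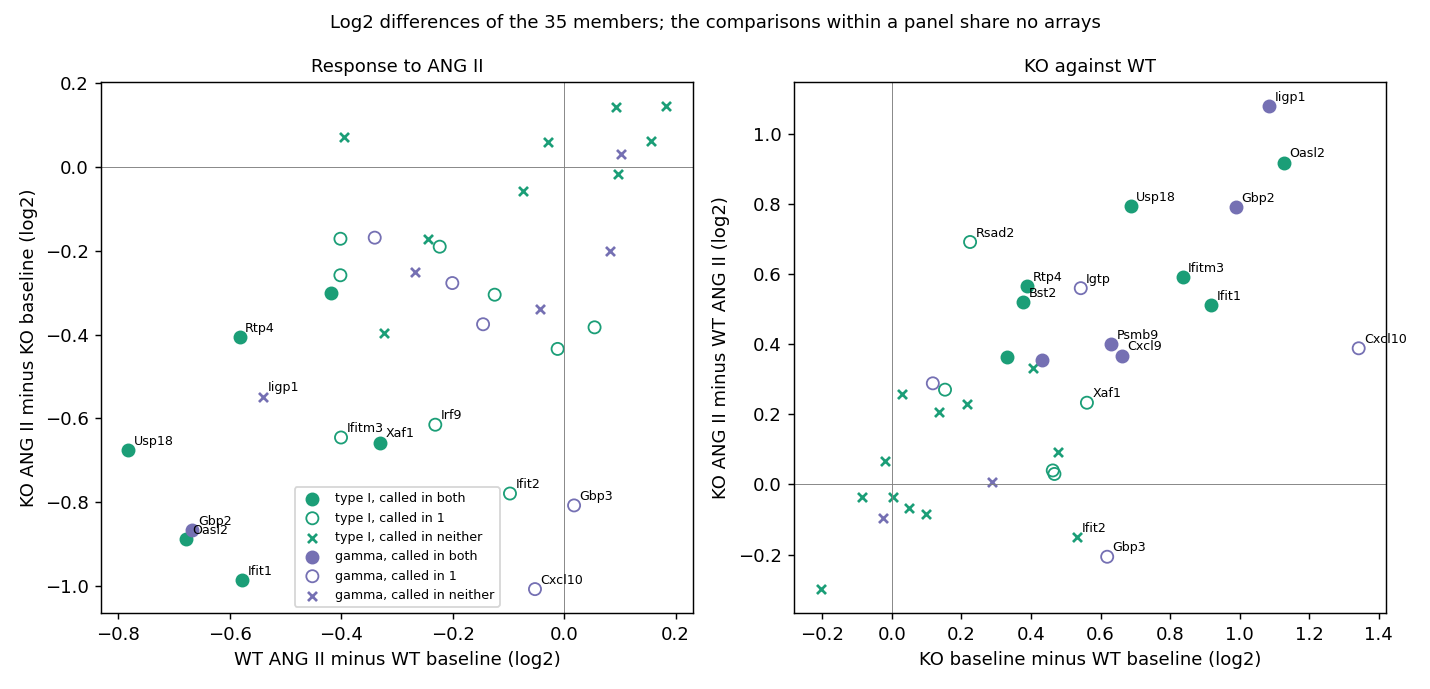
Log2 differences of the 35 members, with the WT response to ANG II against the KO response on the left and the KO minus WT difference at baseline against that under ANG II on the right; filled points were called in both comparisons, open points in 1 and crosses in neither. On the left Gbp3 and Cxcl10 lie near 0 for WT and under -0.8 for KO, and on the right most points lie above 0 on both axes.

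The difference of the responses, KO minus WT, was called for 3 of 35 members, all lower in KO, where 4.12% of all genes were called lower and 8.86% higher. Gbp3 differed by -0.83 ± 0.17 (adjusted p = 0.00804), with responses of -0.81 in KO and 0.02 in WT. Cxcl10 differed by -0.95 ± 0.28 (adjusted p = 0.0416), with responses of -1.01 in KO and -0.05 in WT. Parp14, a mono-ADP-ribosyltransferase, differed by -0.44 ± 0.13 (adjusted p = 0.0463), with responses of -0.38 in KO and 0.05 in WT. Parp14 had ratios of 1.05, 1.01 and 0.942 in KO ANG II, 1.40, 1.30 and 1.21 in KO baseline, 0.931, 1.10 and 0.914 in WT ANG II and 0.92, 1.04 and 0.867 in WT baseline. For these 3 genes KO baseline was the group that stood apart from all others. The remaining 32 were not called, and their intervals were wide: for Usp18 the difference was 0.11 (95% interval -0.27 to 0.48) and for Gbp2 -0.20 (-0.58 to 0.18). Gbp3 kept its call with any 1 of the 12 arrays left out and under every alternative. Cxcl10 lost it in 10 of the 12 leave-outs and Parp14 in 8, with adjusted p of 0.0986 and 0.109 without WT baseline replicate 3. Gbp3 was the 1 member still called when replicate 2 or 3 of KO ANG II, replicate 1 or 2 of KO baseline or replicate 1 or 3 of WT baseline was left out. The macrophage markers Lyz2 (-1.66), Cd14 (-0.98) and Fcgr3 (-0.98) were called lower in the same comparison. They were 3 of 12 (25%, against 4.12% of all genes), and their part was not tested.

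Under ANG II 16 of 35 members were higher in KO than in WT and none was lower, where 15.2% of all genes were called higher and 10.4% lower. The median difference was 0.27 over the members and -0.02 over all genes. This comparison shares no arrays with that at baseline. Of the members 12 were higher in KO in both, which are 70.6% of those at baseline and 75% of those under ANG II. They were Usp18, Ifit1, Oasl2, Bst2, Ifitm3, Rtp4, Ifi35, Gbp2, Iigp1, Psmb8, Psmb9 and Cxcl9. Over all genes 199 were higher in both, or 21.3% of 934 and 7.2% of 2763.

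The largest differences under ANG II were those of Iigp1 (1.08 ± 0.24, adjusted p = 0.00648), Oasl2 (0.92 ± 0.15, adjusted p = 0.000953), Usp18 (0.79 ± 0.12, adjusted p = 0.000773) and Gbp2 (0.79 ± 0.12, adjusted p = 0.000768). Iigp1 had ratios of 1.11, 1.99 and 0.884 in KO ANG II and 0.633, 0.503 and 0.656 in WT ANG II. Its KO ANG II arrays were spread but above all WT ANG II arrays. Rsad2 (0.69), Igtp (0.56), Irgm1 (0.29) and Ifih1 (0.27) were called under ANG II and not at baseline. Cxcl10 (0.39 ± 0.20, adjusted p = 0.162), Gbp3 (-0.21, adjusted p = 0.221), Irf7 (0.04), Parp14 (0.03) and Xaf1 (0.23, adjusted p = 0.0529) were called at baseline and not under ANG II. Of these last 5, a change between conditions passed the test of the difference of the responses for Cxcl10, Gbp3 and Parp14. Mx2, a dynamin-like antiviral GTPase, differed by -0.30 (adjusted p = 0.0741), with its KO ANG II arrays below its WT ANG II arrays. Ifit1 lost its call with the replicate number as a block (adjusted p = 0.0502). Under every alternative and with any 1 array left out 9 of the 16 kept their call, namely Usp18, Rsad2, Oasl2, Bst2, Rtp4, Ifi35, Gbp2, Psmb8 and Psmb9, and quantile normalization again left 9 called. Without WT ANG II replicate 1, 15 were higher and Mx2 was called lower. Macrophage markers were higher in KO ANG II than in WT ANG II for 8 of 12, with a median of 0.77. The endothelial means per array were -0.14 to 0.11 in KO ANG II and -0.31 to -0.155 in WT ANG II, with 2 of 8 called higher. The B and plasma cell means were 0.10 to 0.24 in KO ANG II and -0.34 to -0.04 in WT ANG II, with 1 of 7 called higher. Their median difference was -0.09, with 4 of 7 negative and the largest at 2.43, so the means do not speak for the list. Of the T and NK cell markers 3 of 11 (27.3%) were lower and of the neutrophil markers 3 of 7 (42.9%), against 10.4% of all genes. Called higher were 66.7% of the macrophage, 25% of the endothelial and 14.3% of the B and plasma cell markers, against 15.2% of all genes. The Actb signal at its 3′ end over its 5′ end was 0.0016 to 0.03 in KO ANG II and 0.07 to 0.15 in WT ANG II, without overlap, while for Gapdh the ranges overlapped. The part of these was not tested.

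The medians of the type I and the gamma class had the same sign in each comparison of 2 groups, and the type I class had the smaller median difference between genotypes. At baseline the median KO minus WT difference was 0.35 over 24 type I members and 0.62 over 11 gamma members, with 41.7% of the type I and 63.6% of the gamma class called. Under ANG II the medians were 0.23 over the type I and 0.37 over the gamma class, with 37.5% of the type I and 63.6% of the gamma class called. In the KO response the medians were -0.30 for type I and -0.34 for gamma. In the WT response they were -0.24 for type I and -0.15 for gamma, with 9 of 24 type I and 2 of 11 gamma members called. Called lower there were 37.5% of the type I and 18.2% of the gamma class, the latter near the 15.6% of all genes. With probe sets tested alone 12 type I and 4 gamma members were called there, and with 1 for each gene 8 and 4. These are counts and medians of lists, with no test between the classes, and members share the same mice.

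The mean log2 ratio of the type I class per array was 0.03, 0.02 and -0.13 in KO ANG II, 0.34, 0.34 and 0.23 in KO baseline, -0.30, -0.28 and -0.25 in WT ANG II and 0.04, -0.02 and -0.14 in WT baseline. That of the gamma class was 0.05, 0.22 and -0.06 in KO ANG II, 0.51, 0.55 and 0.47 in KO baseline, -0.27, -0.35 and -0.23 in WT ANG II and -0.03, -0.04 and -0.23 in WT baseline. The third WT baseline replicate was the lowest of its group in both classes. The type I mean minus the gamma mean was -0.02, -0.20 and -0.07 in KO ANG II, -0.17, -0.21 and -0.24 in KO baseline, -0.02, 0.07 and -0.02 in WT ANG II and 0.07, 0.02 and 0.09 in WT baseline. The KO baseline arrays were below all 6 WT arrays in this difference. With narrower classes of 12 and 9 genes, the median type I minus gamma difference was -0.30 at baseline, against -0.27 with the full classes.

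**Figure D4:**
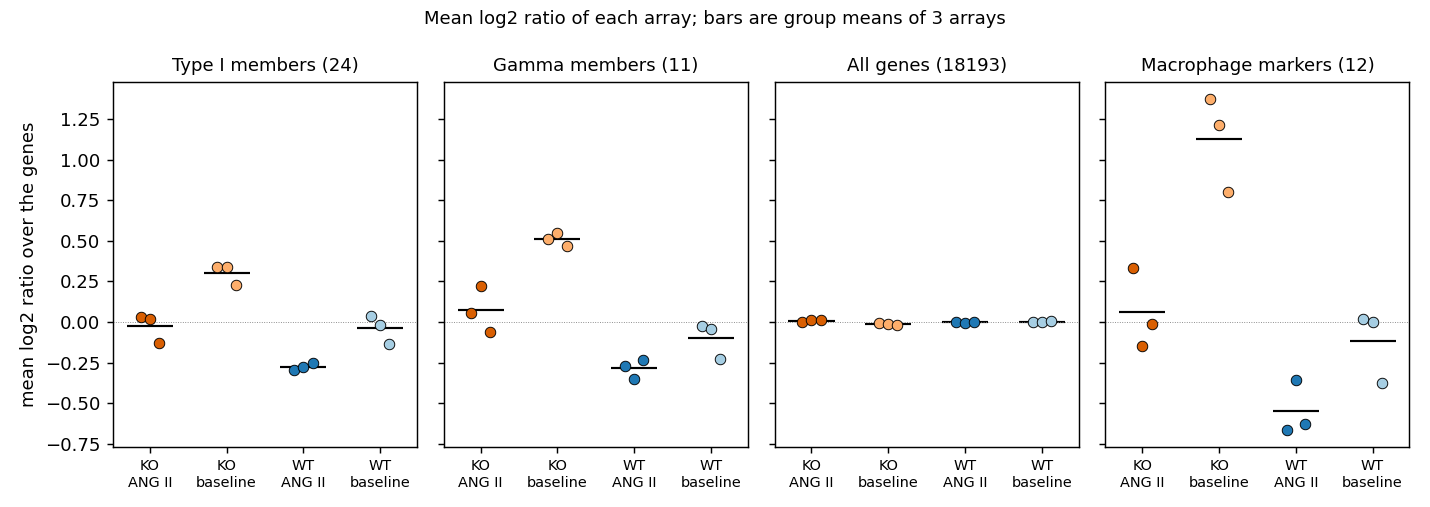
Mean log2 ratio of each array over the 24 type I members, the 11 gamma members, all 18193 genes and the 12 macrophage markers, with arrays as points and group means as bars. KO baseline is highest and WT ANG II lowest in the member and macrophage panels, while the mean of all genes stays near 0.

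Where a gene had several probe sets they were averaged. Of the 35 members 16 had several, 59 probe sets in all, and no member had probe sets called in opposite directions. The genes in this paragraph were chosen after their values were seen. For Cxcl9 the probe set 1418652_at was higher in KO at baseline by 1.30 (adjusted p = 0.000147) and 1456907_at by 0.03 (adjusted p = 0.934). For Psmb8 they were 1422962_a_at at 0.87 (adjusted p = 0.000881) and 1444619_x_at at -0.01 (adjusted p = 0.973), and for Rtp4 1418580_at at 0.61 (adjusted p = 0.0211) and 1449143_at at 0.17 (adjusted p = 0.446). In the WT response the 2 Rtp4 probe sets gave -1.15 and -0.02. A probe set of Parp14, 1451564_at, fell in KO by 0.69 (adjusted p = 0.000942), and the other, 1432548_at, differed by -0.07 (adjusted p = 0.737). Between the responses 1451564_at differed by -0.63 (adjusted p = 0.0135) and 1432548_at by -0.25 (adjusted p = 0.43). Of the Cxcl9 probe sets, 1418652_at also differed between the responses, by -0.79 (adjusted p = 0.0166).

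Other genes of the pathway were counted from lists of names, also chosen with earlier results of these data known. Of 32 further type I response genes, 12 (37.5%) were higher in KO at baseline, against 5.13% of all genes, and none was lower. Among them were Trim30a (0.72), the GTPase Ifi47 (0.78), Herc6 (0.40) and Ifi204 (0.43), a DNA-binding protein. In the KO response 11 of these fell (34.4%, against 7% of all genes) and none rose. In the WT response 10 fell (31.2%, against 15.6% of all genes) and 3 rose, which at 9.38% is near the 10.9% of all genes. The largest fall of the list in WT was that of Ifi27l2a (-1.26, adjusted p = 0.00629), and the calls with the lowest adjusted p were Samd9l (-0.75), Lgals3bp (-0.67), Trim30a (-0.49) and Ifi27 (-0.42). The 3 that rose in WT were Oas3 (0.49), Isg20 (0.48) and Oas2 (0.37) and were named after their values were seen. Oas2 and Oas3 make the oligoadenylate that activates RNase L. Under ANG II 12 of the 32 were higher in KO (37.5%, against 15.2% of all genes) and 3 lower (9.38%, near the 10.4% of all genes).

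Of 23 further interferon gamma response genes, 13 (56.5%) were higher in KO at baseline, against 5.13% of all genes, and none was lower. They included H2-K1 (0.45) and B2m (0.40), the chains of an MHC class I molecule, Nlrc5 (0.73), the transactivator of class I genes, and Psmb10 (0.48), the remaining subunit of the immunoproteasome. In the KO response 10 fell (43.5%, against 7% of all genes), among them Nlrc5 (-0.83), B2m (-0.52), Tapbp (-0.46) and H2-K1 (-0.45). In the WT response 2 fell, Irgm2 (-0.50) and Tapbp (-0.32), and 2 rose, Gbp7 (0.53) and Batf2 (0.37), or 8.7% each way, under the 15.6% of all genes that fell and the 10.9% that rose. Under ANG II 4 were higher in KO (17.4%, near the 15.2% of all genes) and 1 was lower (4.35%, against 10.4%). For the difference of the responses, KO minus WT, 6 of the 23 were lower (26.1%, against 4.12% of all genes) and none was higher. Of the 32 further type I genes 3 were lower there (9.38%) and 2 higher (6.25%, against 8.86% of all genes).

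Of the interferon ligands 9 were measured, and none was called between genotypes at baseline. Ifng differed by -0.06 (adjusted p = 0.646) and Ifnb1 by 0.01 (adjusted p = 0.979). In the WT response 2 of the 9 were called higher (22.2%, against 10.9% of all genes), Ifna2 by 0.42 (adjusted p = 0.0274) and Ifna9 by 0.32 (adjusted p = 0.0182), with a median of 0.26 over the 9. In the KO response 1 was called higher (11.1%, against 5.82% of all genes), Ifna1 by 0.47 (adjusted p = 0.0423). Under ANG II 1 was lower in KO than in WT (11.1%, near the 10.4% of all genes), Ifna9 by -0.40 (adjusted p = 0.00631). The mean log2 ratio of the ligands per array was -0.11 to 0.105 in KO ANG II, -0.18 to -0.03 in KO baseline, 0.111 to 0.29 in WT ANG II and -0.14 to 0.01 in WT baseline, so that the WT ANG II arrays were the highest. No ligand was called for the difference of the responses. Of 6 receptor chains Ifngr1 was higher in KO at baseline, by 0.27 (adjusted p = 0.0312), and fell in the KO response by 0.29 (adjusted p = 0.0194). Ifnar2 fell in the WT response by 0.43 (adjusted p = 0.0047) and differed by -0.29 in the KO response (adjusted p = 0.0508). The receptor chains called lower in WT were 16.7%, near the 15.6% of all genes. Of the 8 kinases and transcription factors measured, Irf8, a factor of myeloid cells and of interferon responses, was higher in KO at baseline by 0.62 (adjusted p = 0.00113) and Stat3 by 0.40 (adjusted p = 0.00467). Irf2 fell in both responses, by 0.45 in WT and by 0.44 in KO. Of 6 inhibitors Socs3, which blocks cytokine receptor kinases, was higher in KO at baseline by 1.12 (adjusted p = 0.0359). Of 10 further sensors and adaptors Sting1, the adaptor of cytosolic DNA sensing, was higher in KO at baseline by 0.56 (adjusted p = 0.0191) and fell in the KO response by 0.74 (adjusted p = 0.00414). At baseline the shares called higher were 16.7% of receptor chains, 25% of kinases and transcription factors, 16.7% of inhibitors and 10% of these sensors and adaptors. Over all genes the share was 5.13%, and these lists are short.

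Across the series, the target check was made on Agtr1a, which had 1 probe set. Its ratios were 0.917 to 1.05 in KO ANG II, 0.923 to 1.04 in KO baseline, 0.957 to 1.00 in WT ANG II and 1.36 to 1.40 in WT baseline. It was lower in KO at baseline (-0.49, adjusted p = 0.00148) and was not called under ANG II (-0.0035 ± 0.07, adjusted p = 0.975), and no source used here says whether its probes lie within the deletion. Among 11 kidney tubule and glomerulus markers none was called between genotypes at baseline, and ratios cannot show their level. The SD of log2 ratios over all genes was 0.14 to 0.17 in KO ANG II, 0.19 to 0.24 in KO baseline, 0.25 to 0.31 in WT ANG II and 0.13 to 0.15 in WT baseline.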

How the data were processed

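RNA of 12 kidneys, 1 array per mouse, was measured. The only tool in the submitters' processing notes is RMA. The deposited values are a linear ratio of each array to the median of the probe set over the 12 arrays. The values themselves show this division, which the authors do not state: the median lay within 0.002 of 1 in 45099 of 45101 rows. The 2 undivided rows were centred on their median. The scanner intensities behind a ratio are unknown, so precision is limited by the number of arrays. Ratios were put on the log2 scale, 64 control probe sets were left out, and the 34945 probe sets with 1 gene symbol in the array annotation were averaged to 18193 genes; 932 with several symbols and 9160 with none were not used.

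Means of the 4 groups were estimated in 1 linear model over all genes and arrays with limma 3.58.1 in R 4.3.3 (8 residual and 4.73 prior degrees of freedom), and tested two-sided in 5 comparisons with Benjamini-Hochberg adjustment, called under 0.05. The fit was run on simulated data with independent noise and the same spread in every group. This checks the code and not how real arrays or linked genes behave. Members, classes and gene lists were chosen with earlier results of these data known. Every member may be named; values per array are given for the 4 type I and 3 gamma members of smallest adjusted p in each response and in the genotype comparison at baseline, and for the others where a sentence turns on them. Up to 4 called genes per pathway list and comparison were named by adjusted p; others named were chosen after their values were seen.

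The labels number replicates 1 to 3 in each group without saying what a number shares. Same-numbered arrays of WT ANG II and WT baseline deviated together (r = 0.228, 0.236 and 0.125). Those of KO ANG II and KO baseline did not (r = -0.0276, -0.146 and 0.0475), nor did those between genotypes. Some differently numbered arrays correlated as much, such as KO ANG II replicate 2 and WT ANG II replicate 3 (r = 0.25). Whether the numbers pair any samples is therefore not known, and the main fit treats the arrays as unpaired. Alternatives were another summary of probe sets, normalization, variance trend, the compared groups alone, array weights, a filter on spread, the replicate block, narrower classes and leaving out each array. Promoter sequences are from RefSeq, GRCm38.p6.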

Additional observations from a re-analysis of the deposited data

Results flagged for a closer look

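For 3 members the response to ANG II differed between KO and WT by the test of the difference itself, and no explanation was weighed. The difference, KO response minus WT response on the log2 scale, was -0.83 for Gbp3, -0.95 for Cxcl10 and -0.44 for Parp14. Only Gbp3 kept its call with any 1 array left out, while Cxcl10 lost it in 10 of 12 leave-outs and Parp14 in 8. Each gene fell in KO. The WT response was 0.02 for Gbp3, -0.05 for Cxcl10 and 0.05 for Parp14. Outlying arrays were not looked for, as groups held 3 arrays.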

How the results depend on the processing

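Counts of called members were recomputed under each alternative. Tested probe set by probe set, 5 members differed between the responses. After quantile normalization again, 6 were called in the WT response, 1 between the responses and 9 for KO minus WT under ANG II, and with a variance trend 1 was called between the responses; all other counts over all arrays were within 1.5 times those reported. With 1 array left out the counts ran from 9 to 14 in the KO response, 8 to 12 in the WT response, 1 to 4 for their difference, 10 to 16 for KO minus WT at baseline and 12 to 16 under ANG II. The replicate block gave 11 calls in WT, 18 in KO, 3 for the difference, 18 at baseline and 17 under ANG II, and ended no call other than that of Ifit1 for KO minus WT under ANG II. Tap1 turned its sign, to 0.38 at baseline and 0.31 under ANG II, when a single probe set stood for the gene or each was tested alone. With narrower classes the type I minus gamma median was -0.023 in the WT response (-0.09 with full classes), -0.028 for the difference of the responses (0.14) and -0.21 under ANG II (-0.14). Over the 64 calls and all settings on all arrays, 535 of 573 values kept the call and 38 lost it; with 1 array left out 304 of 402 kept it and 98 lost it, and none of these turned direction. The causes were not tested. With 3 mice per group small differences cannot be seen, and mean ratios carry no information on signal over background.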
